A study of Caenorhabditis elegans with 20 samples.

Results

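Autophagy genes were followed in total RNA from whole day 1 adult Caenorhabditis elegans. The set held 30 genes, chosen by gene symbol, out of 46778 genes with a deposited level, and all 30 were abundant enough to be tested. They were grouped by the step at which their products act: 3 in initiation, 3 in nucleation, 6 in membrane expansion and contact with the endoplasmic reticulum (ER), 11 in the conjugation systems, 1 in maturation and 6 in cargo selection. Each of 5 strains gave 4 libraries. The wild type was N2. The null strain was CF3050, labelled pgrn-1(-), which lacks progranulin, a secreted precursor protein that is cut into smaller granulins. The other strains carried the same pgrn-1(-) background and 1 granulin each: AWK33 granulin 1(+), AWK43 granulin 2(+) and AWK107 granulin 3(+). No strain received a treatment. Each granulin was carried by 1 strain, so its effect and any other difference of that strain cannot be told apart, and the labels name no promoter. By sample name, the null and granulin 2 libraries share the letters E to H and the libraries of the remaining strains the letters A to D, and the sources used here do not say what the letters mean. If they stand for batches, granulin 2 and the null share their batches, though the fit behind the calls below held no term for the letter. Every comparison between one of these strains and wild type, granulin 1 or granulin 3 then cannot be told apart from batch.

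Autophagy encloses part of the cytoplasm in a double membrane, the autophagosome, and delivers it to the lysosome for breakdown. A kinase complex around UNC-51 starts the process, a lipid kinase complex with VPS-34 and BEC-1 marks the membrane, and 2 ubiquitin-like conjugation systems attach LGG-1 and LGG-2, the homologs of mammalian GABARAP and LC3, to it. Receptors then bind cargo to these proteins. In this nematode the pathway is well studied in the embryo, where it removes P granule proteins from somatic cells and the mitochondria that sperm bring in. Granulins are found in lysosomes, where autophagy ends.

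Libraries held 48279370 to 128776517 reads. The reads of pgrn-1 followed the labels, with 6 to 32 in the null libraries and 527 to 871 in wild type. Every library of a strain carrying a granulin lay far above wild type. The lowest of them held 7283 pgrn-1 reads (replicate 4 of granulin 2), and the highest 57202 (replicate 3 of granulin 1). These strains thus did not return to the wild type level, and the part of this excess in the results below was not tested. Some libraries stood apart. Ribosomal RNA took 0.45% to 52.7% of reads and more than 20% in 4 libraries (wild type replicate 4, granulin 1 replicate 3, and granulin 2 replicates 3 and 4). In 5 libraries long genes were under-represented most, as measured by the slope of each gene's deviation from its mean level on exon length (null replicate 1, granulin 1 replicate 3, granulin 2 replicate 2 and granulin 3 replicates 2 and 3). Calls of members that are lost without either group of libraries are given with the results below. For the pathway and marker lists such losses were not examined. Calls that are gained are given as counts, and not every gene gained is named. In whole-animal RNA, fewer cells of a type and less RNA per cell cannot be told apart.

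Levels are given as CPM, the count of a gene per unit of library size, after scaling between libraries by trimmed means of M values (TMM), and between genes only per kilobase of exon. The most abundant member per kilobase was lgg-1 in all 5 strains, at 379 ± 52.6 CPM per kilobase in wild type (mean ± SD, n = 4 libraries). Next in wild type came lgg-2 at 119 ± 42.6 CPM per kilobase, allo-1 at 102 ± 27.5, atg-18 at 83.7 ± 36.3 and epg-4 at 71.5 ± 24.8. These 4 followed lgg-1 in every strain, in an order that varied. Their ranges overlapped in wild type, granulin 1 and granulin 3, whereas allo-1 lay above the ranges of lgg-2 and epg-4 in the null and below them in granulin 2. The scarcest member per kilobase in every strain was sepa-1, a receptor of P granule proteins, at 0.498 ± 0.477 CPM per kilobase in wild type and 1.76 ± 0.565 in granulin 2. Its reads numbered 8 to 443 per library, so its values carry the most counting error. In wild type epg-2 (3.42 ± 2.26 CPM per kilobase) and epg-5 (3.64 ± 0.904) stood just above it and did not differ from each other beyond their spread.

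**Figure D1:**
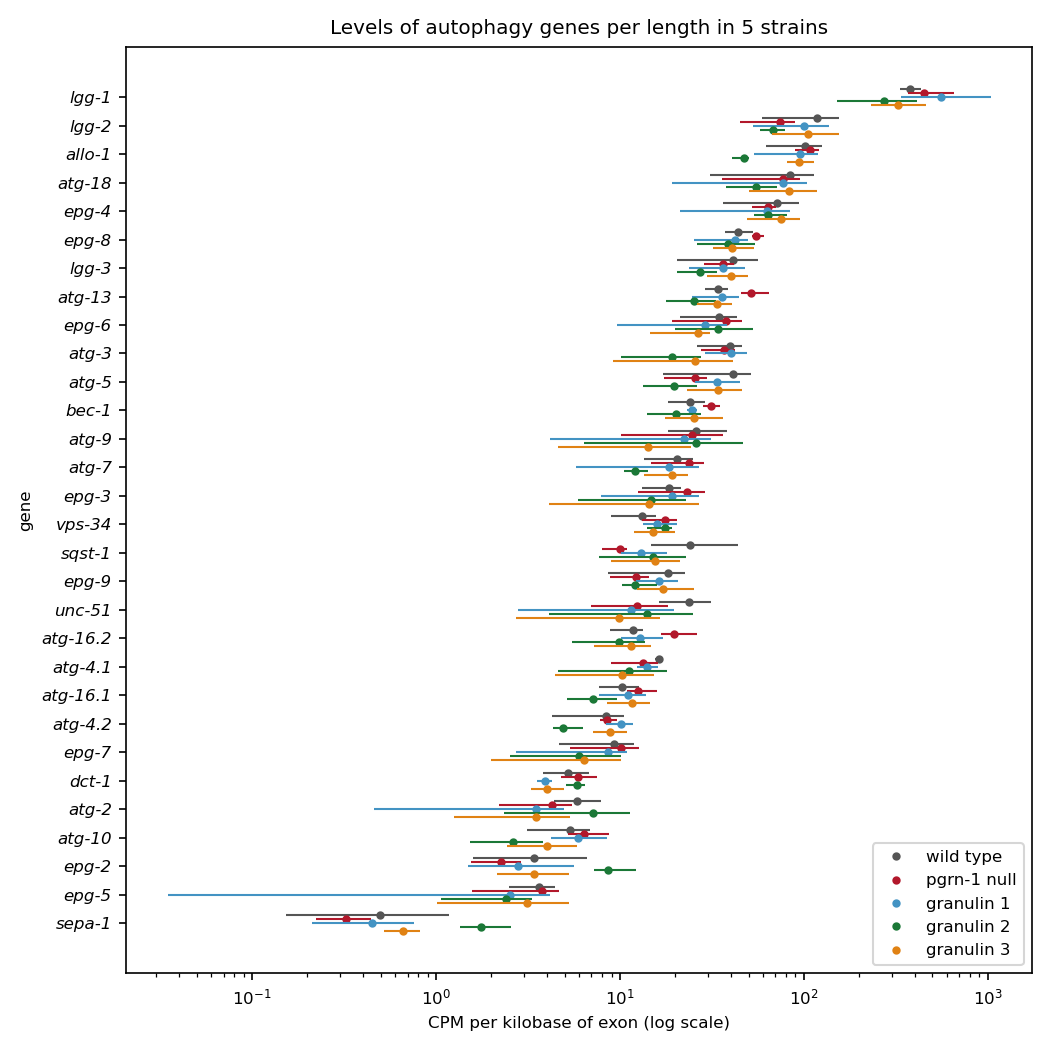
Level of each autophagy gene as CPM per kilobase of exon on a log scale; points are means of 4 libraries of a strain, lines run from the lowest to the highest library. The gene lgg-1 lies at the top in every strain and sepa-1 at the bottom, and for epg-2 and sepa-1 the granulin 2 lines lie to the right of those of all other strains.

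Strains were compared for every gene with limma, a linear model that shares information on the spread between genes, with all 20 libraries in 1 fit. Fold changes are on the log2 scale ± the moderated standard error, and p-values carry the Benjamini-Hochberg adjustment over the 15737 genes of the fit, and a gene is called past an adjusted p of 0.05. In the granulin 2 strain the transcripts of the cargo factors sepa-1 and epg-2 rose above the null, and those of 6 other members fell: the kinase complex scaffold atg-13, the conjugation factors atg-4.2, atg-10, atg-16.1 and atg-16.2, and the receptor allo-1. Thus 8 of 30 members (26.7%) passed, where 21.6% of all genes tested did. The lower calls were 20% of members against 4.18% of all genes, and the higher calls were 6.67% of members against 17.5% of all genes. The median log2 fold change of the members was -0.45 and that of all genes 0.04, and 25 of 30 members (83.3%) lay below 0 where 48.0% of all genes did. The count of members called was 16 (2 higher, 14 lower) when the length slope entered the fit, where 40.3% of all genes passed (23.7% higher, 16.5% lower). Without the 5 libraries of lowest length slope it was 12, where 27.1% did, and it included all 8 genes. Without the 4 libraries rich in ribosomal RNA it was 5 (2 higher, 3 lower), where 17% did (14% higher, 3.04% lower). These were sepa-1, epg-2, atg-13, allo-1 and, in addition, atg-7. The calls of atg-4.2, atg-10, atg-16.1 and atg-16.2 were not made there. That fit kept only replicates 1 and 2 of granulin 2, so fewer libraries and ribosomal RNA cannot be told apart in the lost calls. The libraries of granulin 2 and the null did not overlap for 10 members: 8 lay below (26.7%, against 9.48% of all genes), which were the 6 called and bec-1 and atg-7, and 2 lay above (6.67%, against 20.8%), sepa-1 and epg-2. On the deposited scale, which has no factor between libraries and moves the median of all genes to -0.18, the 2 higher calls were made and the 6 lower ones were not. Those 6 log2 fold changes there lay between -1.56 and -1.03, with limma adjusted p from 0.0594 upwards. A fit of these strains alone called 9 members (24.9% of all genes). With a block by sample letter added it called 3 (16% of all genes), sepa-1, epg-2 and allo-1, so that atg-13 and the 4 conjugation factors were not called.

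**Figure D2:**
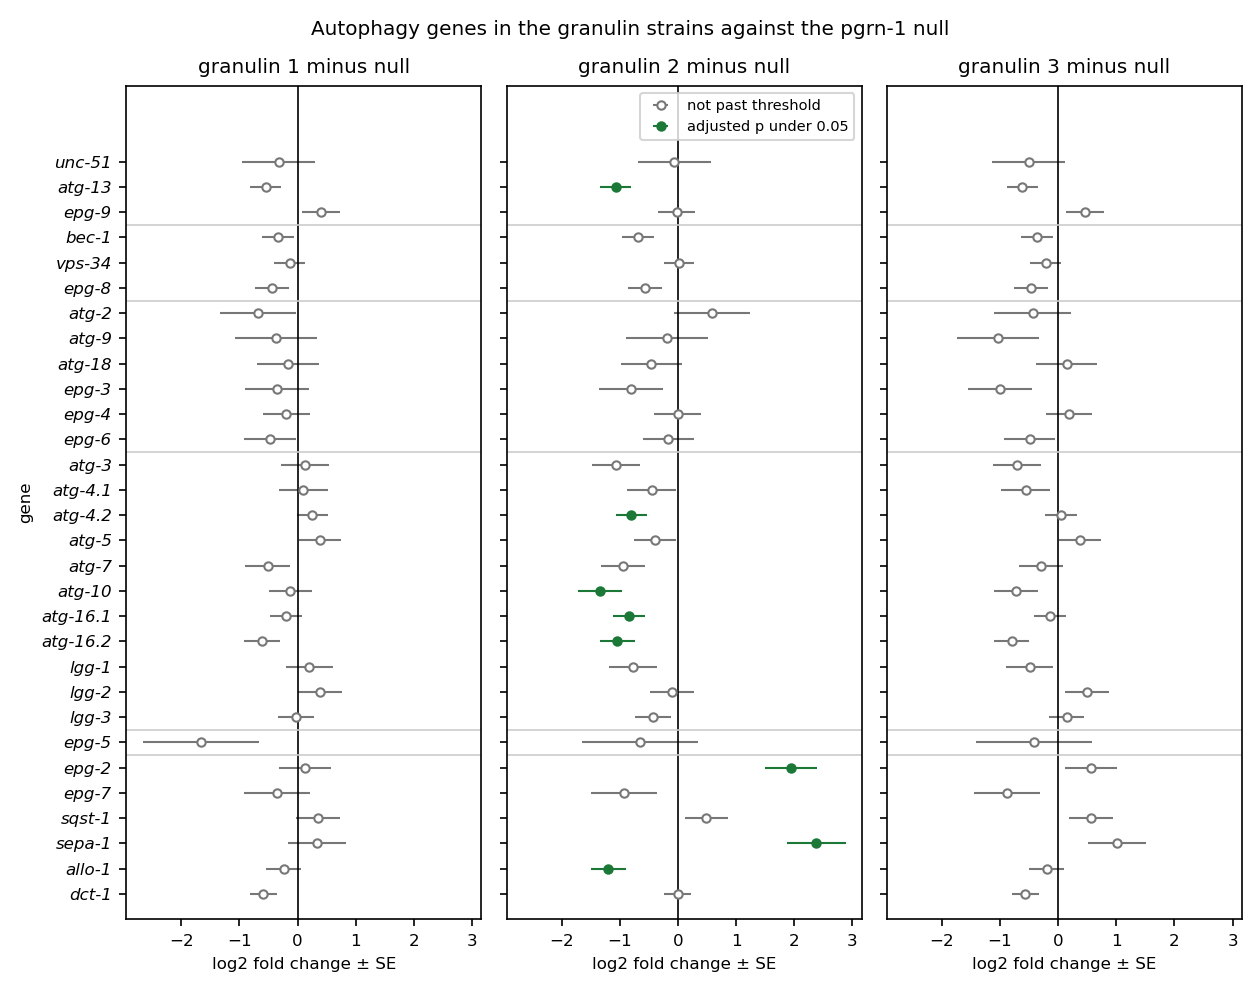
Log2 fold change of each autophagy gene in granulin 1, granulin 2 and granulin 3 against the pgrn-1 null, with bars of ± 1 moderated standard error from limma (4 libraries a strain); filled points are past an adjusted p of 0.05 and grey lines separate the steps of the pathway. Filled points appear in the middle panel, 2 to the right and 6 to the left of 0.

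In granulin 2 against wild type 3 members passed (10%, against 18.3% of all genes): sepa-1 and epg-2 were higher (15.5% of all genes were) and allo-1 was lower (2.8% were). In granulin 2 against granulin 1 the count was 6 (20%, against 18.9% of all genes): sepa-1 and epg-2 higher (14.8% of all genes were), and atg-3, atg-4.2, atg-10 and allo-1 lower (4.12% were). The libraries of the strains compared did not overlap for 3 members against wild type (sepa-1 and epg-2 above, where 16.4% of all genes were, and allo-1 below, where 5.17% were) and for 7 against granulin 1 (sepa-1, epg-2 and dct-1 above, 14.7% of all genes, and atg-3, atg-4.2, atg-10 and allo-1 below, 4.84%). Granulin 2 is the first strain in all 3 comparisons, so they share its libraries. All 17 calls, on 9 members, came from them, and 21 members were called in none of the 10 comparisons between strains. The moderated F-test over the 5 strains called 4 members (13.3%, against 21.5% of all genes): sepa-1, epg-2, allo-1 and atg-4.2. Granulin 3 against granulin 2 called no member, so the pattern is not shown to belong to granulin 2 alone. Without the 5 libraries of lowest length slope every one of these calls was made, and the counts against wild type and granulin 1 were 9 and 11, where 23.6% and 22.2% of all genes passed. Without the 4 libraries rich in ribosomal RNA the counts were 5 and 3, where 17.4% and 11.8% did. Those were sepa-1, allo-1, atg-4.2, atg-5 and lgg-3 against wild type and sepa-1, allo-1 and atg-4.2 against granulin 1, and the F-test then called sepa-1 and allo-1.

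**Figure D3:**
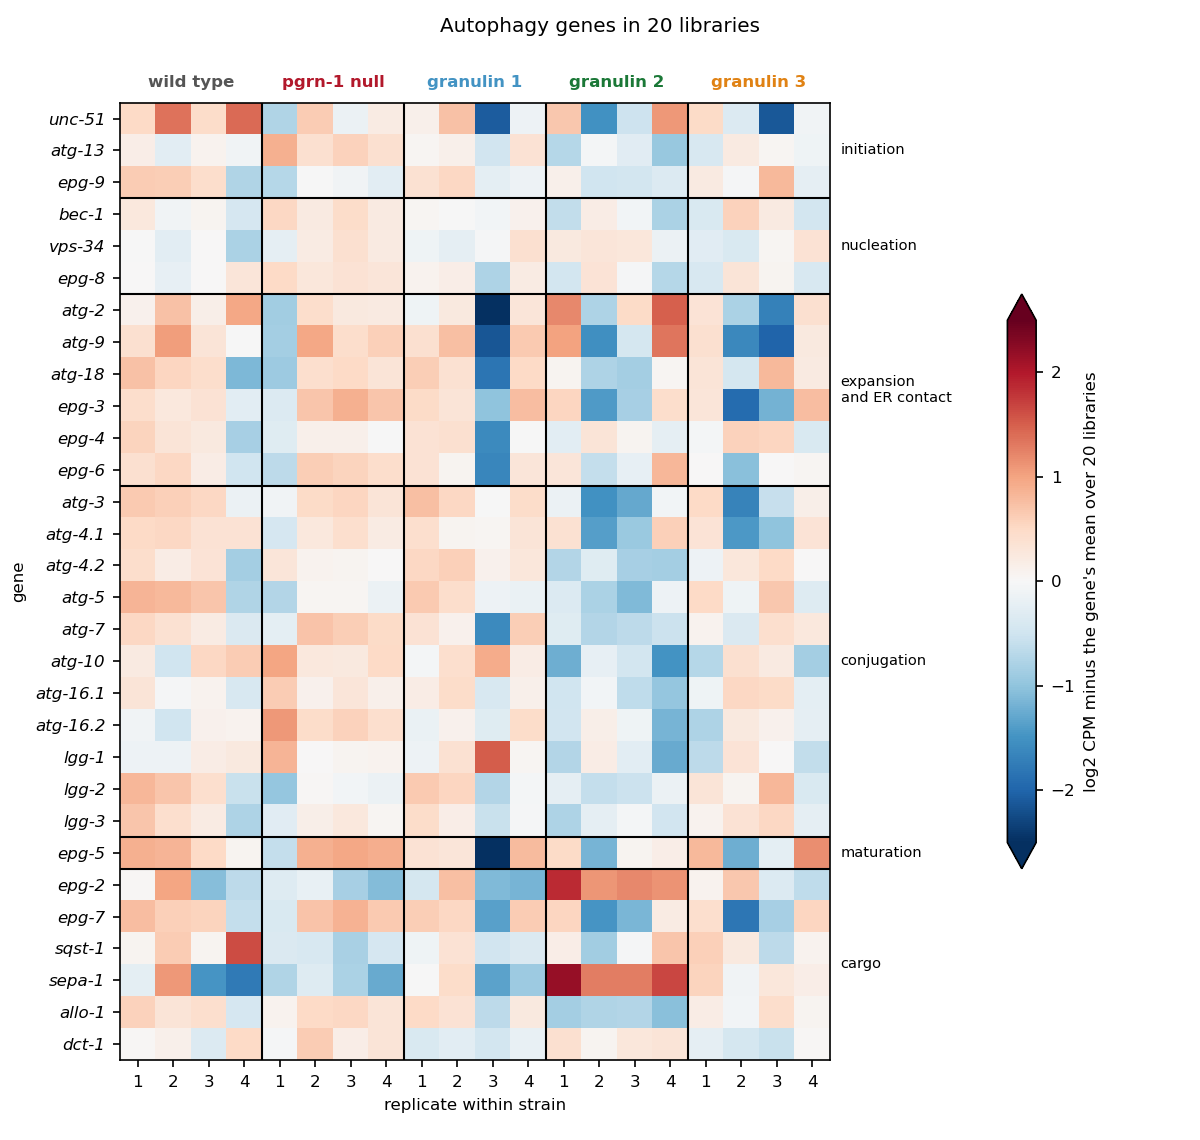
Log2 CPM of each autophagy gene in each of the 20 libraries minus the gene's mean over all libraries, with strains in blocks of 4 columns and steps of the pathway in blocks of rows (red above the mean, blue below). In the granulin 2 block sepa-1 and epg-2 are above the mean in all 4 columns and atg-4.2 and allo-1 below it, and granulin 1 replicate 3 forms a dark blue column through the long genes.

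The initiation complex consists of the kinase UNC-51, the homolog of mammalian ULK1, its partner ATG-13 and EPG-9, the homolog of ATG101. The gene atg-13 (WBGene00017045, chromosome III, bases 8155947 to 8158190, minus strand, build ce11) had the clearest difference among them. Its level was 95.3, 67.3, 76.3 and 67.6 CPM in null replicates 1 to 4 and 31.2, 49.6, 42.1 and 26.5 CPM in those of granulin 2. All 4 granulin 2 libraries lay below all 4 null libraries. In wild type it was 57.4, 42.8, 54.9 and 48.0 CPM, in granulin 1 53.4, 55.8, 36.7 and 66.2 CPM and in granulin 3 39.1, 60.3, 53.4 and 47.4 CPM, all lower than each null library. The level in granulin 2 was 2.09-fold lower than in the null (log2 fold change -1.07 ± 0.27, limma adjusted p = 0.00556). No other comparison of atg-13 passed, and the null against wild type gave 0.59 ± 0.27 (limma adjusted p = 0.464). Its exons overlap those of D2007.1 on the other strand over 134 bases, 9.04% of its length, and the sources used here do not say whether counting used strand.

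The kinase gene unc-51 varied more within strains than between them. It stood at 47.9, 88.0, 47.0 and 91.05 CPM in wild type, 20.2, 52.7, 31.01 and 39.4 CPM in the null and 37.1, 56.9, 8.07 and 31.2 CPM in granulin 1. In granulin 2 it stood at 54.2, 11.9, 23.7 and 72.6 CPM and in granulin 3 at 47.6, 26.99, 7.85 and 32.0 CPM. Every strain but wild type thus had a library below 25 CPM, and granulin 2 spanned most of the range seen. Granulin 3 against wild type gave a log2 fold change of -1.45 ± 0.63 (limma adjusted p = 0.185), and granulin 2 against the null -0.06 ± 0.63 (adjusted p = 0.968). The strain means of epg-9 ran from 16.6 ± 3.57 CPM in granulin 2 to 25.2 ± 9.09 CPM in wild type, with no call.

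Nucleation rests on the lipid kinase VPS-34, its regulator BEC-1, the homolog of Beclin 1, and EPG-8, which takes the place of ATG14 in this nematode. None of the 3 genes was called in any comparison. The levels of bec-1 were 38.8, 30.5, 33.9 and 24.4 CPM in wild type, 46.7, 37.97, 44.96 and 37.8 CPM in the null and 33.8, 32.2, 31.004 and 35.1 CPM in granulin 1. They were 21.3, 36.8, 30.9 and 18.7 CPM in granulin 2 and 25.0, 48.8, 37.9 and 23.5 CPM in granulin 3. The granulin 2 libraries lay below those of the null without overlap, as those of granulin 1 did, and the granulin 3 libraries spanned both. Granulin 2 against the null gave -0.68 ± 0.28 on the log2 scale and missed the threshold (limma adjusted p = 0.0875). It passed when the length slope entered the fit (16 members in all) and without the 5 libraries of lowest slope (12 in all). For vps-34 the strain means ran from 37.1 ± 8.74 CPM in wild type to 49.3 ± 6.76 CPM in granulin 2, with overlapping libraries in these strains. In the null epg-8 was at 75.7 to 88.0 CPM, above every granulin 1 library (36.6 to 72.0 CPM), with a log2 fold change of -0.44 ± 0.29 in granulin 1 (limma adjusted p = 0.792).

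The expansion genes encode the lipid transfer protein ATG-2, the membrane protein ATG-9, the phosphoinositide binders ATG-18 and EPG-6, and EPG-3 and EPG-4, homologs of the ER proteins VMP1 and EI24. No comparison called any of the 6, although atg-2 passed in granulin 2 against granulin 1 without the 5 libraries of lowest length slope. Against the null their log2 fold changes in granulin 2 ran from -0.80 for epg-3 to 0.59 for atg-2. The spread within strains was wide for the longest of them. In granulin 2 atg-2 was at 70.3, 17.8, 42.2 and 85.2 CPM, and atg-9 at 132, 23.0, 48.6 and 167 CPM, so that replicates 1 and 4 were several times higher than replicate 2. In granulin 1 atg-2 was at 28.3, 35.9, 3.47 and 37.5 CPM and atg-9 at 86.9, 112, 14.9 and 105 CPM, with replicate 3 far below the rest. The standard errors of these 2 genes (0.66 and 0.71 on the log2 scale) were more than 2 times that of atg-13 (0.27).

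The conjugation genes were lower on average in granulin 2. ATG-7 is the activating enzyme of both systems, ATG-10 and ATG-3 hand on LGG-3 and the LGG-1 and LGG-2 proteins, ATG-4.1 and ATG-4.2 are the proteases that process LGG-1 and LGG-2, and LGG-3 (the homolog of ATG12), ATG-5 and the ATG-16 proteins form the complex that directs lipidation. All 11 genes had lower mean levels in granulin 2 than in the null, wild type and granulin 1, with median log2 fold changes of -0.80, -0.73 and -0.64 where all genes had medians of 0.04, 0.00 and 0.07. Of the 11, 4 fell past the threshold against the null, 0 against wild type and 3 against granulin 1, where 4.18%, 2.8% and 4.12% of all genes did. With the length slope in the fit the count was 7 in each of these comparisons, where 16.5%, 13.9% and 14% of all genes fell. All 11 also lay below 0 in the 3 comparisons under each other setting that kept every library or left out a group of libraries, with the exception of granulin 2 against wild type without the 4 libraries rich in ribosomal RNA, where 10 of 11 did.

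Atg-4.2 (WBGene00014080, chromosome IV, bases 11668024 to 11671505, plus strand) was at 16.3, 14.04, 13.9 and 13.3 CPM in the null and at 7.90, 10.6, 7.45 and 7.32 CPM in granulin 2. The other strains gave 17.9, 15.02, 16.7 and 7.28 CPM in wild type, 18.9, 19.9, 14.2 and 16.0996 CPM in granulin 1 and 12.2, 16.003, 18.6 and 13.2 CPM in granulin 3. Granulin 2 lay below every library of the null, granulin 1 and granulin 3 and overlapped wild type through its replicate 4. The gene was 1.74-fold lower than in the null (log2 fold change -0.80 ± 0.27, limma adjusted p = 0.0390) and 2.07-fold lower than in granulin 1 (-1.05 ± 0.27, adjusted p = 0.00788). The call against granulin 1 was made without each library of these strains in turn, whereas that against the null was made in 2 of 8 such fits. The difference from the null without the 4 libraries rich in ribosomal RNA was -0.66 (limma adjusted p = 0.0755), while atg-4.2 was called against wild type in that fit. Its paralog atg-4.1 was called nowhere and ranged from 7.46 to 29.1 CPM in granulin 2, with replicates 2 and 3 low, and from 24.9 to 27.6 CPM in wild type.

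Atg-10 (WBGene00008427, chromosome II, bases 8659135 to 8659800, plus strand) was scarce, with 43 to 415 reads per library. Its level was 4.61, 2.79, 2.74 and 3.28 CPM in the null and 0.974, 2.02, 1.68 and 0.810 CPM in granulin 2. It was 2.70, 1.65, 3.34 and 3.60 CPM in wild type, 2.23, 3.12, 4.47 and 2.63 CPM in granulin 1 and 1.40, 3.08, 2.72 and 1.28 CPM in granulin 3. All granulin 2 libraries lay below all libraries of the null and of granulin 1 and overlapped those of wild type and granulin 3. The fall was 2.53-fold against the null (log2 fold change -1.34 ± 0.37, limma adjusted p = 0.0127) and 2.32-fold against granulin 1 (-1.21 ± 0.37, adjusted p = 0.0265). Neither call was made without the 4 libraries rich in ribosomal RNA (-1.22 and -0.88). Its exons share 19 bases with piga-1 on the other strand, a gene that was also lower in granulin 2 than in the null (-0.74, limma adjusted p = 0.0463), and the part of these bases in the result was not tested.

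The ATG-16 paralogs both fell in granulin 2 against the null. For atg-16.1 (WBGene00017178, chromosome X, bases 4459603 to 4462465, minus strand) the levels were 29.5, 20.3, 23.4 and 20.5 CPM in the null and 13.4, 17.96, 12.2 and 9.61 CPM in granulin 2. Wild type had 23.6, 18.4, 20.2 and 14.3 CPM, granulin 1 21.6, 25.8, 14.3 and 20.7 CPM and granulin 3 17.4, 27.2, 26.1 and 15.8 CPM. The log2 fold change was -0.84 ± 0.27 (limma adjusted p = 0.0323), and the call was made in 3 of the 8 fits that left out a library of either strain. It was not called without the 4 libraries rich in ribosomal RNA, at -0.59 (limma adjusted p = 0.192). The groups of the null and granulin 2 did not overlap for this gene or its paralog. For atg-16.2 (WBGene00019427, chromosome II, bases 6450889 to 6453391, minus strand) the levels were 49.6, 32.3, 34.6 and 31.3 CPM in the null and 16.7, 25.9, 21.6 and 10.4 CPM in granulin 2. In wild type they were 21.9, 16.5, 25.0 and 24.7 CPM, in granulin 1 20.8, 25.0, 18.99 and 32.1 CPM and in granulin 3 13.7, 27.6, 25.0 and 20.02 CPM. The null libraries were thus above all of wild type and granulin 3 as well. Atg-16.2 was 2.05-fold lower in granulin 2 than in the null (log2 fold change -1.04 ± 0.30, limma adjusted p = 0.0172), and it was not called without null replicate 1, without granulin 2 replicate 4 or without the 4 libraries rich in ribosomal RNA (-0.81, adjusted p = 0.110).

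**Figure D4:**
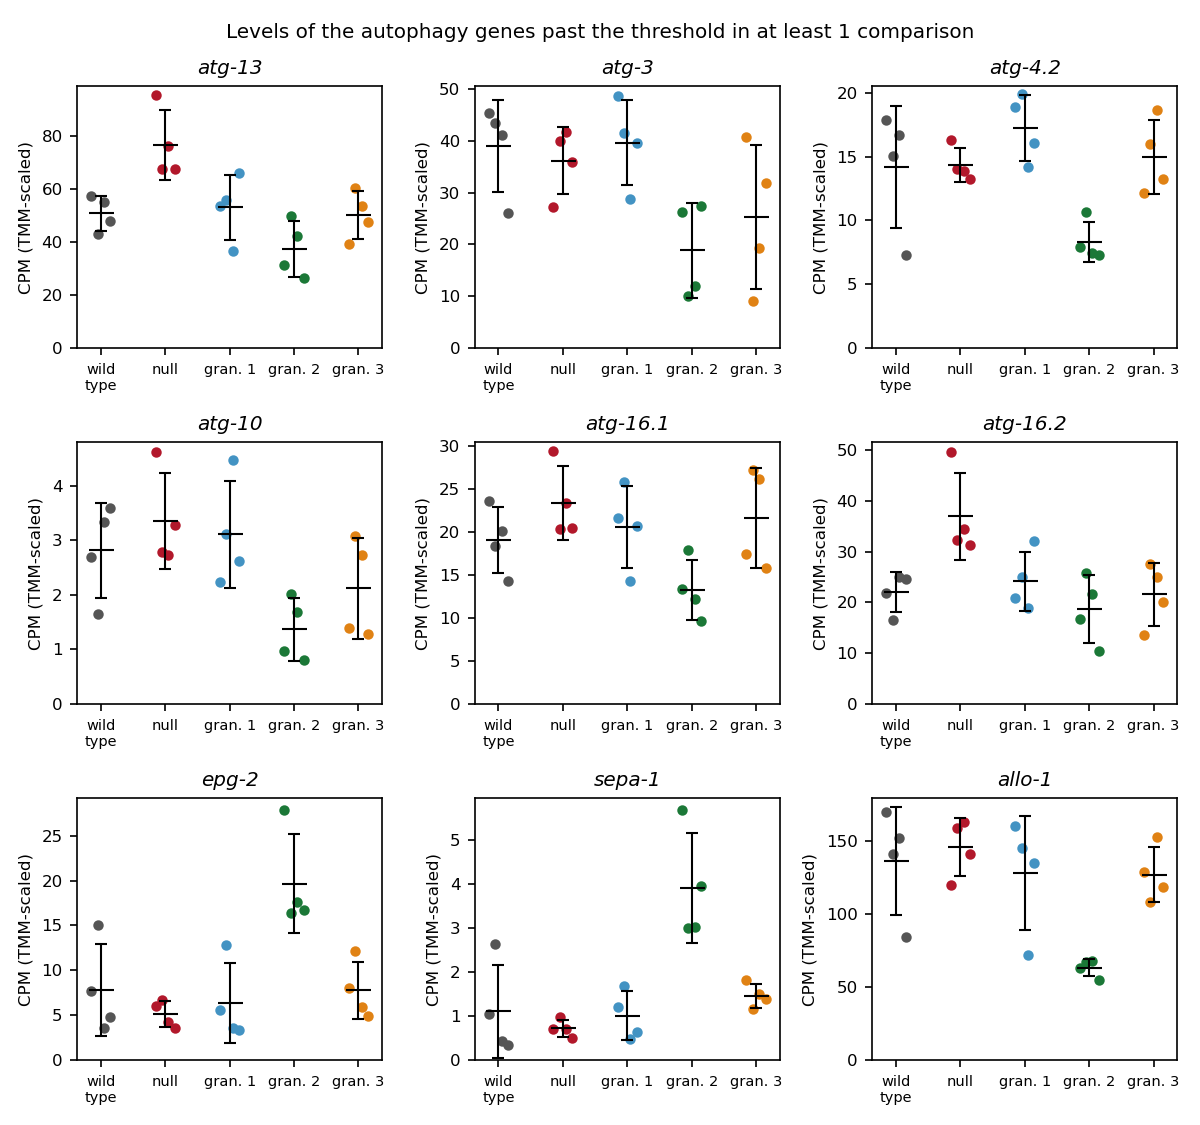
Level (CPM, TMM-scaled, axes from 0) of the 9 autophagy genes past the threshold in at least 1 comparison, in each library of the 5 strains; bars give the mean and ± 1 SD of 4 libraries. The granulin 2 points lie above all null points for epg-2 and sepa-1 and below all null points for atg-13, atg-4.2, atg-10, atg-16.1, atg-16.2 and allo-1, while for atg-3 the granulin 2 and null points overlap.

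Atg-3 (WBGene00021922, chromosome IV, bases 1010512 to 1012502, plus strand) was at 48.6, 41.5, 28.8 and 39.6 CPM in granulin 1 and 26.2, 10.1, 11.9 and 27.3 CPM in granulin 2. Its levels were 45.5, 43.5, 41.1 and 26.0 CPM in wild type, 27.1, 40.1, 41.7 and 35.9 CPM in the null and 40.7, 9.07, 19.4 and 31.9 CPM in granulin 3. Granulin 2 lay below every granulin 1 library, although its replicates 1 and 4 were close to the lowest of them. The fall against granulin 1 was 2.27-fold (log2 fold change -1.18 ± 0.41, limma adjusted p = 0.0485). It was not called with a prior count of 0.5, with limma-voom or without the 4 libraries rich in ribosomal RNA (-1.39, adjusted p = 0.0831), and was called in 3 of 8 fits that left out a library of these strains. Against the null the fold change was -1.06 ± 0.41 (limma adjusted p = 0.0726).

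The genes lgg-1 and lgg-2, which encode conjugated proteins, were called in no comparison. For lgg-1 the levels were 235, 236, 295 and 305 CPM in wild type, 466, 261, 270.1 and 273 CPM in the null and 237, 338, 735 and 268 CPM in granulin 1. They were 156, 293, 215 and 107 CPM in granulin 2 and 163, 326, 258 and 169 CPM in granulin 3. Granulin 1 replicate 3 and null replicate 1 were the highest of their strains, and granulin 2 overlapped every other strain. Granulin 2 against the null gave -0.77 ± 0.41 (limma adjusted p = 0.206), a comparison that was called when the length slope entered the fit. Against wild type and granulin 1 the gene passed without the 5 libraries of lowest length slope. The gene lgg-2 stood at 162, 147, 122 and 61.5 CPM in wild type, 46.5, 92.4, 87.0 and 82.3 CPM in the null and 143, 132, 54.8 and 87.8 CPM in granulin 1. Granulin 2 had 77.3, 59.7, 62.5 and 81.9 CPM and granulin 3 113, 94.8, 162 and 69.4 CPM. Wild type replicates 1 to 3 were high and replicate 4 low, so that the strains overlapped, and granulin 2 against wild type gave -0.73 ± 0.38 (limma adjusted p = 0.226). Per kilobase, lgg-1 exceeded lgg-2 in all 20 libraries, by a median ratio of 2.95 in wild type, 4.71 in the null, 4.12 in granulin 1, 3.996 in granulin 2 and 2.95 in granulin 3. Within granulin 1 that ratio ran from 2.44 to 19.7, which is wider than the differences between strain medians.

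Of the other conjugation genes, atg-7 had 22.1 to 29.7 CPM in granulin 2, below all null libraries (30.6 to 60.0 CPM), with a log2 fold change of -0.95 ± 0.38 (limma adjusted p = 0.0882). It passed with the length slope in the fit, without the 4 libraries rich in ribosomal RNA and without the 5 of lowest slope. For atg-5 the largest difference was granulin 2 against wild type, -0.99 ± 0.36 (limma adjusted p = 0.0649), with wild type replicate 4 inside the granulin 2 range. The strain means of lgg-3, the ubiquitin-like protein of the second system, ran from 11.3 ± 2.41 CPM in granulin 2 to 17.03 ± 6.31 CPM in wild type. Both atg-5 and lgg-3 passed in granulin 2 against wild type without the 4 libraries rich in ribosomal RNA.

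Maturation was represented by epg-5, a tether that helps autophagosomes fuse with lysosomes. Its exons span 7291 bases. Its mean was 26.5 ± 6.59 CPM in wild type and 27.6 ± 10.8 CPM in the null. Granulin 1 had 18.5 ± 12.8 CPM, granulin 2 17.5 ± 6.98 CPM and granulin 3 22.8 ± 14.3 CPM. The libraries of all 5 strains overlapped and no comparison was called.

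Among the cargo genes, sepa-1 and epg-2 rose in granulin 2 against the null, wild type and granulin 1. SEPA-1 is the receptor that binds P granule proteins in the embryo, and EPG-2 is an adaptor that links cargo aggregates to LGG-1. Sepa-1 (WBGene00010808, chromosome I, bases 13298204 to 13300716, minus strand) was at 0.712, 0.979, 0.695 and 0.492 CPM in the null and 5.66, 2.99, 3.01 and 3.94 CPM in granulin 2. In wild type it was 1.04, 2.63, 0.425 and 0.339 CPM, in granulin 1 1.21, 1.69, 0.470 and 0.641 CPM and in granulin 3 1.81, 1.15, 1.497 and 1.38 CPM. Every granulin 2 library lay above every library of the other 4 strains. The rise was 5.21-fold against the null (log2 fold change 2.38 ± 0.50, limma adjusted p = 0.00131), 4.58-fold against wild type (2.20 ± 0.50, adjusted p = 0.00274) and 4.13-fold against granulin 1 (2.05 ± 0.50, adjusted p = 0.00571). All 3 calls were made under each of the other settings tried and without each library of the strains compared. Granulin 3 also lay above the null in all libraries, at 1.01 ± 0.50 (limma adjusted p = 0.223), and below granulin 2 at -1.37 ± 0.50 (adjusted p = 0.122), neither past the threshold.

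Epg-2 (WBGene00021468, chromosome I, bases 2300086 to 2302813, plus strand) was at 6.03, 6.64, 4.25 and 3.54 CPM in the null and 27.9, 16.4, 17.6 and 16.7 CPM in granulin 2. The remaining strains had 7.74, 15.1, 3.60 and 4.79 CPM in wild type, 5.57, 12.8, 3.53 and 3.40 CPM in granulin 1 and 8.07, 12.1, 5.94 and 4.91 CPM in granulin 3. Granulin 2 again lay above all other libraries, with wild type replicate 2 the nearest. The rise was 3.85-fold against the null (log2 fold change 1.94 ± 0.45, limma adjusted p = 0.00281), 2.85-fold against wild type (1.51 ± 0.45, adjusted p = 0.0199) and 3.52-fold against granulin 1 (1.82 ± 0.45, adjusted p = 0.00579). Against granulin 3 the level in granulin 2 was higher by a difference that missed the threshold (-1.39 ± 0.45 for granulin 3 minus granulin 2, limma adjusted p = 0.0741). Without the 4 libraries rich in ribosomal RNA the call against the null was made and those against wild type and granulin 1 were not (1.55 and 1.79, limma adjusted p = 0.0967 and 0.0702). The call against wild type was made in 5 of 8 fits that left out a library of these strains, and those against the null and granulin 1 in 8 of 8. On the deposited scale the call against granulin 1 was not made (1.54, limma adjusted p = 0.0705). On the other strand tpxl-1 shares 78 exon bases with epg-2 and is far more abundant (up to 34715 reads against 2434), and its own level showed no call in granulin 2 against the null (-0.11 ± 1.05 on the log2 scale, limma adjusted p = 0.965).

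Markers of other cell types were also called in these comparisons, where 17.5%, 15.5% and 14.8% of all genes were higher in granulin 2 than in the null, wild type and granulin 1. Of 13 sperm markers 11 were tested, and all 11 were higher in each of the 3. In granulin 3, 7 of the 11 were higher than in the null and 7 than in wild type, where 11.2% and 10.7% of all genes were. Their summed level was 64.8 to 109.6 CPM in granulin 2 libraries, 3.89 to 9.26 in the null, 2.10 to 5.97 in wild type, 5.68 to 17.2 in granulin 1 and 14.4 to 84.3 in granulin 3, and ssp-9 was at 0 in every null and wild type library. Of 13 embryo markers 11 were tested and 3 were higher in granulin 2 than in the null, 2 than in wild type and 5 than in granulin 1. Their summed level overlapped between granulin 2 and each of these strains, at 19.2 to 24.7 CPM in granulin 2, 19.6 to 24.8 in the null, 12.5 to 43.4 in wild type and 6.75 to 38.9 in granulin 1. Of 7 hypodermis markers 4 were higher in granulin 2 than in the null, with sums of 427 to 1392 and 395 to 872 CPM, and 2 were higher than in each of wild type and granulin 1. Of 6 muscle markers 1 was higher in granulin 2 than in the null, 0 than in wild type and 2 than in granulin 1, with sums of 1437 to 3113 CPM in granulin 2 and 781 to 1763 CPM in the null. Of 8 neuron markers 1 was higher and 1 lower in granulin 2 than in each of the null and granulin 1. Against wild type 1 was lower. Of all genes 4.18%, 4.12% and 2.8% were lower than in the null, granulin 1 and wild type. The neuron sums were 79.9 to 133.7 CPM in granulin 2 and 129.55 to 156 in the null. They were 186.8 to 236.4 in wild type and 148.2 to 217.4 in granulin 1, with no overlap with granulin 2. Their median log2 fold changes were 0.57 against the null, -0.01 against wild type and 0.54 against granulin 1. None of 8 intestine markers was called. The part of these markers in the rise of sepa-1 and epg-2 was not tested.

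Allo-1 (WBGene00011292, chromosome IV, bases 10695306 to 10697072, minus strand) encodes the receptor through which embryos take up paternal organelles for breakdown. It was at 119, 159, 163 and 141 CPM in the null and 63.1, 67.2, 67.9 and 54.7 CPM in granulin 2. Wild type had 169, 141, 152 and 84.0 CPM, granulin 1 160.1, 145, 71.7 and 135 CPM and granulin 3 128, 108, 153 and 118 CPM. All 4 granulin 2 libraries were lower than every other library, with granulin 1 replicate 3 and wild type replicate 4 nearest. The fall was 2.29-fold against the null (log2 fold change -1.20 ± 0.30, limma adjusted p = 0.00624), 2.09-fold against wild type (-1.07 ± 0.30, adjusted p = 0.0151) and 1.94-fold against granulin 1 (-0.96 ± 0.30, adjusted p = 0.0313). Granulin 3 exceeded granulin 2 by 0.998 ± 0.30 (limma adjusted p = 0.0593). The call against granulin 1 was made in 2 of 8 fits that left out a library, that against wild type in 6 of 8 and that against the null in 8 of 8. On the deposited scale it was not called against the null (-1.43, limma adjusted p = 0.0601), wild type (-0.86, adjusted p = 0.367) or granulin 1 (-1.23, adjusted p = 0.120). The call against granulin 1 was also not made in the fit of only the strains compared.

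None of 8 germ line markers was called in granulin 2 against the null, wild type or granulin 1. Of 14 oocyte and eggshell markers 0 were called against the null, 1 was lower against wild type and 1 was lower against granulin 1. Against the null the median log2 fold changes of these lists were -0.21 and -0.70. Summed over the list, oocyte and eggshell markers reached 2825 to 24949.9 CPM in granulin 2 and 5758 to 20737 CPM in the null. Germ line markers reached 859 to 4183 and 929.8 to 2979.7 CPM, and no marker of either list was at 0 in a whole strain. The part of germ line content in the lower levels of allo-1 and the conjugation genes was not tested.

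Sqst-1, the homolog of the mammalian receptor p62, was called nowhere. Its levels were 33.4, 49.8, 33.2 and 98.8 CPM in wild type, 24.7, 24.2, 18.1 and 23.7 CPM in the null and 29.4, 40.8, 22.8 and 24.8 CPM in granulin 1. Granulin 2 had 35.6, 17.4, 31.4 and 51.4 CPM and granulin 3 47.9, 37.8, 20.3 and 33.8 CPM. The null lay below wild type without overlap (5.62% of all genes did so), with wild type replicate 4 far above the rest, and gave -1.10 ± 0.37 on the log2 scale (limma adjusted p = 0.305). Its scaffold epg-7 ranged over 11.3 to 45.5 CPM in granulin 2 and 24.2 to 57.2 CPM in the null. The mitophagy receptor dct-1 had 6.17 to 7.77 CPM in granulin 2, above every granulin 1 library (4.29 to 5.19 CPM), but the difference missed the threshold (0.59 ± 0.24, limma adjusted p = 0.0926).

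No member was called for the loss of pgrn-1 by itself. In the null against wild type 0 of 30 passed, where 0.197% of all genes did. An unadjusted limma p under 0.05 was found for 3 members and for 1622 of all 15737 genes, and limma-voom called 0 members. All null libraries lay above wild type for atg-13 and atg-16.2 (4.73% of all genes did so) and below it for sqst-1. Granulin 1 against the null also called 0 members, where 0.47% of all genes passed. It had 1 member at an unadjusted limma p under 0.05, where 1176 of 15737 genes were, and 0 calls by limma-voom. Its libraries lay below the null without overlap for 4 members, atg-13, bec-1, epg-8 and dct-1 (13.3%, against 1.86% of all genes). Granulin 1 against wild type called 0 (0.324% of all genes), with 0 members at an unadjusted limma p under 0.05 (1413 of 15737 genes were) and 0 by limma-voom.

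Granulin 3 differed from the null in many genes, with no member among them. Against the null 12.7% of all genes passed and 0 of 30 members did, with 3 at an unadjusted limma p under 0.05 (3820 of 15737 genes were) and 0 by limma-voom. Its libraries lay below the null without overlap for atg-13 and atg-16.2 (6.23% of all genes did so) and above it for sepa-1 (15.9% did). A total of 20 members had mean levels below the null, and the median log2 fold change of the members was -0.39 where that of all genes was 0.07. With the length slope in the fit 8 members passed, where 29.8% of all genes did. They were 8 lower and 0 higher, where 11.9% of all genes were lower and 17.9% higher. Without the 4 libraries rich in ribosomal RNA atg-16.2 and dct-1 passed, where 18.4% of all genes did, and without the 5 of lowest length slope atg-16.2 passed, where 16.7% did. Against wild type 11.2% of all genes passed and 0 members, with 1 at an unadjusted limma p under 0.05 (3139 of 15737 genes were) and 0 by limma-voom. All granulin 3 libraries lay below wild type for atg-4.1 (1.95% of all genes did so). Against granulin 1 these values were 5.58% of all genes, 0 members called by limma, 0 at an unadjusted limma p under 0.05 (2365 of 15737 genes were) and 0 by limma-voom. Against granulin 2 they were 5.39% of all genes, 0 members called by limma, 7 at an unadjusted limma p under 0.05 (3171 of 15737 genes were) and 1 by limma-voom (7.82% of all genes). The libraries of granulin 3 and granulin 2 did not overlap for allo-1 and atg-4.2, where granulin 3 lay above (5.97% of all genes did so), nor for sepa-1, epg-2 and dct-1, where it lay below (7.29% did).

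Of 3 lists of genes that control or complete autophagy, each held 1 gene called in granulin 2 against the null, where 21.6% of all genes passed, and at most 1 in granulin 3 against the null, where 12.7% did. All of these calls were lower, where 4.18% and 1.57% of all genes were. In granulin 2 against granulin 1 4.12% of all genes were lower. Among 16 genes of TOR and AMPK signalling and transcriptional control, 1 was called in granulin 2 against the null: ragc-1, a Rag GTPase that brings TOR to the lysosome, fell by a log2 fold change of -0.98 ± 0.30 (limma adjusted p = 0.0219), and by -0.89 ± 0.30 against granulin 1 (adjusted p = 0.0418). Among 16 genes of fusion with lysosomes, vamp-7, a SNARE protein, was lower than in the null in granulin 2 (-0.91 ± 0.23, limma adjusted p = 0.00624) and in granulin 3 (-0.80 ± 0.23, adjusted p = 0.0260), and lower in granulin 2 than in granulin 1 (-0.67 ± 0.23, adjusted p = 0.0477). Of 4 partners in mitophagy and the removal of paternal mitochondria, fndc-1, a mitochondrial receptor, was lower than in the null in granulin 2 (-1.02 ± 0.29, limma adjusted p = 0.0140) and granulin 3 (-0.90 ± 0.29, adjusted p = 0.0459). The P granule proteins pgl-1 and pgl-3 and the methyltransferase prmt-1, the cargo of SEPA-1 and its modifier, were called in no comparison.

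The transcription factor HLH-30, the homolog of mammalian TFEB, activates autophagy and lysosome genes. Its gene was at 58.9, 91.4, 63.0 and 99.4 CPM in wild type and 24.8, 38.6, 31.3 and 35.1 CPM in the null. In granulin 1 it was at 49.9, 62.5, 26.0 and 32.2 CPM, in granulin 2 at 69.0, 17.7, 35.2 and 69.5 CPM and in granulin 3 at 78.2, 44.5, 17.99 and 51.7 CPM. The null libraries lay below those of wild type without overlap, and the granulin strains spanned both. The null against wild type gave -1.25 ± 0.45 on the log2 scale, which missed the threshold (limma adjusted p = 0.345), and no other comparison of hlh-30 passed.

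Single libraries stood at the low end of their strain for many members. Granulin 1 replicate 3 was the lowest library of its strain for 25 of 30 members (83.3%), where it was the lowest for 41.1% of all genes tested. The deviation was widest for long genes: epg-5 (7291 bases) lay -6.43 on the log2 scale from the mean of the other 3 libraries, atg-2 (7547 bases) -3.27 and atg-9 (3589 bases) -2.75. Of the 30, lgg-1 (708 bases) lay above it, at 1.40 and so did atg-10 (526 bases), at 0.76, while the other 28 lay below, including the shortest, lgg-3 (416 bases), at -0.76. Null replicate 1 and wild type replicate 4 were each the lowest of their strain for 19 members (63.3%, against 36.7% and 36.9% of all genes), and granulin 2 replicate 2 for 16 (53.3%, against 32.8%). Without granulin 1 replicate 3, a library outside the comparison, 9 members were called in granulin 2 against the null. The share of all genes called in that fit is not given here.

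**Figure D5:**
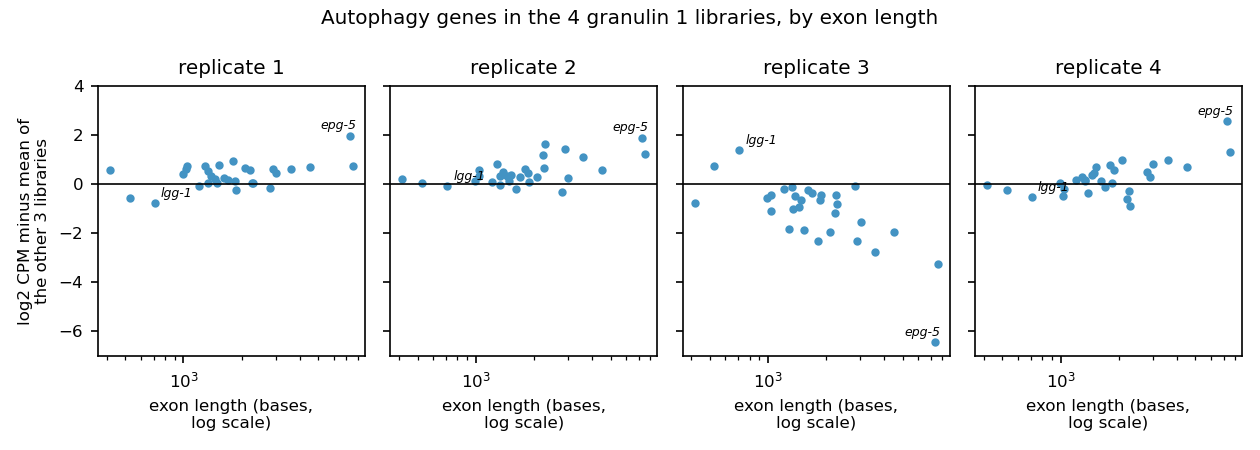
Deviation of each autophagy gene (points) in each granulin 1 library from the mean of the other 3 libraries, in log2 CPM, against exon length in bases on a log scale. In replicate 3 the longest genes lie lowest, down to -6.43 for epg-5, while lgg-1 lies above 0, and in replicates 1, 2 and 4 epg-5 lies above 0.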

How the data were processed

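Day 1 adults were synchronised by egg lay, and their total RNA (Qiagen miRNeasy kit) was sequenced from Illumina TruSeq Stranded Total RNA libraries, per the labels' protocols. The authors deposited log2 CPM for 46778 genes per library, and the tools STAR, HTSeq, edgeR and limma and the build ce11 are named, with no version or setting, per the submitters' processing notes. The sources used here do not name the annotation or the strand setting. Reads were recovered from the steps between the deposited log2 values, with a floor standing for 0 reads and a prior count of 2. Within a tolerance of 0.01 reads 7 values did not come out whole. Ensembl release 115 (ce11) supplied symbols, exon lengths and positions, and all 30 members matched.

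Log2 CPM with a prior count of 2 and own TMM factors (trimming 30% of ratios and 5% of levels) were fitted over 20 libraries, 1 mean per strain, with robust, trended eBayes moderation (limma 3.58.1, R 4.3.3). A gene entered the fit at 0.177 CPM in at least 4 libraries and a total of 15 reads; 15737 did, and 14861 were protein-coding. The fit was tested on simulated data. Fold changes on the log2 (CPM plus prior) scale understate those of low genes. Groups came from the strain label, since the group label names AWK33 for all 3 granulin strains. Replicates are numbered in accession order. Separate cultures are not stated for the libraries of a strain, so that p-values reflect only how these samples varied, possibly for technical reasons.

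The members, the lists of pathway and marker genes and the tests were chosen with earlier results of these data known. Named with per-library values are members past the threshold in any comparison or in the F-test, and unc-51, bec-1, lgg-1, lgg-2 and sqst-1, with hlh-30 and the called genes of the pathway lists. Other members appear by range. Alternatives were other scalings, filters, prior counts, limma-voom, protein-coding genes, only the strains compared, a replicate block, the length slope, library weights and fits with libraries left out. No sequences were printed.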

Additional observations from a re-analysis of the deposited data

Results flagged for a closer look

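Of 150 groups (30 members in 5 strains), 22 held a library whose gap to the nearest of the other 3 was too large a share of the range of the group by Dixon's 95% critical value, where chance gives about 1 in 20, or 7.5 groups. Granulin 1 replicate 3 was the lowest library for 7 of them, with 36.6 CPM of epg-8, 3.47 of atg-2, 14.9 of atg-9, 34.6 of atg-18, 14.8 of epg-6, 0.253 of epg-5 and 12.2 of epg-7. The other granulin 1 libraries had 21.4 to 30.2 CPM of epg-5 and 160.2 to 187 of atg-18.

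Null replicate 1 was the lowest of its strain for atg-2 (16.6 CPM), atg-18 (64.9 CPM), epg-3 (37.8 CPM), epg-6 (29.3 CPM), lgg-2 (46.5 CPM) and epg-5 (11.5 CPM), and the highest for lgg-1, at 466 CPM where the others had 261 to 273. Wild type replicate 4 was the lowest for epg-9 (11.9 CPM), atg-18 (55.9 CPM), atg-5 (17.6 CPM) and epg-7 (20.9 CPM). These 3 libraries account for 18 of the 22.

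The other 4 were single genes. Granulin 3 replicate 2 had the lowest epg-6 of its strain (22.1 CPM), granulin 2 replicate 4 the lowest vps-34 (39.3 CPM) and null replicate 3 the lowest sqst-1 (18.1 CPM). Granulin 2 replicate 1 had the highest epg-2, 27.9 CPM where the others had 16.4 to 17.6. Without it epg-2 in granulin 2 against the null was 1.77 on the log2 scale (limma adjusted p = 0.0136), and its calls against wild type and in the F-test were not made.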

How the results depend on the processing

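No called fold change of a member reversed under any setting. Counts of members called moved by more than 1.5 times as follows, given in the order granulin 2 against the null, wild type and granulin 1 where 8, 3 and 6 were called. With the length slope in the fit they were 16, 12 and 14, where 40.3%, 34.2% and 32.5% of all genes passed, with 15 in the F-test (4 before, 46.1% of all genes) and 8, 2, 4 and 4 in granulin 3 against the null, wild type, granulin 1 and granulin 2 (0 before), where 29.8%, 21%, 17.7% and 12.6% of all genes passed. With library weights, an iteration that stopped before converging, they were 13, 13 and 13 (37.5%, 31.8% and 26.9% of all genes), with 18 in the F-test (51.8%), 5 in the null against wild type (14.1%), 1 in granulin 1 against the null (4.24%), and 10, 1 and 3 in granulin 3 against the null, granulin 1 and granulin 2 (41.2%, 16.9% and 9.73%). On the deposited scale granulin 2 against the null and against granulin 1 gave 2 each (14.3% and 12.9% of all genes) and the F-test 1 (19.1%). There the median of all genes moved to values from -0.19 (granulin 2 against granulin 1) to 0.81 (granulin 3 against wild type). Without the 4 libraries rich in ribosomal RNA the counts were 5, 5 and 3, with 2 in the F-test (20.9% of all genes) and 2 in granulin 3 against the null. Without the 5 libraries of lowest length slope the counts against wild type and granulin 1 were 9 and 11, with 8 in the F-test (26.3% of all genes) and 1 in granulin 3 against the null. Granulin 3 against granulin 2 gave 1 by limma-voom (7.82% of all genes), 1 with no filter (4.85%) and 1 over protein-coding genes (4.19%). Fits of only the strains compared gave 2 there (5.13%) and 3 in granulin 2 against granulin 1 (12.2%). The replicate block by letter, possible where strains share letters, gave 3 in granulin 2 against the null (16% of all genes), where these strains alone without the block gave 9 (24.9%): sepa-1, epg-2 and allo-1 passed, and atg-13, atg-4.2, atg-10, atg-16.1 and atg-16.2 had adjusted p from 0.0754 to 0.122. Whether the letters pair libraries is not known: of 16 same-letter pairs 8 had a correlation of deviations over 0.1 (range -0.59 to 0.58), and 13 of 32 checks found a library closest to its own letter, where 8 would be expected without pairing. Leaving out each library in turn gave 5 to 9 members in granulin 2 against the null (5 without granulin 2 replicate 4), 1 to 7 against wild type (1 without wild type replicate 3, 5 without granulin 1 replicate 3 or granulin 3 replicate 2, 7 without wild type replicate 4), 3 to 7 against granulin 1 (3 without granulin 1 replicate 2), 0 to 2 in granulin 3 against granulin 2, and 1 to 6 in the F-test (1 without granulin 2 replicate 1). The shares of all genes called in the fits without single libraries are not given here, so these counts do not set members apart from other genes. The cause of these shifts was not tested. Depth limits sepa-1 and atg-10, whose lowest libraries held 8 and 43 reads.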
